A study of Drosophila melanogaster with 21 samples.

Results

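The odorant-binding protein (Obp) genes of Drosophila melanogaster were followed across the brain, the ovary and Schneider S2 cells, with and without the transcription factor CG11247 (Saft). Members were all genes whose symbol starts with Obp followed by a digit, which gave 51 of the 13955 genes in the brain and ovary tables. In the S2 table, transcripts of 19 of them were found among 11010 genes, and the other 32 were not listed there. By chromosome arm, 29 members lie on 2R, 12 on 3R, 6 on X, 2 on 2L and 2 on 3L, and many stand in tandem clusters. The gene lush, an odorant-binding protein gene under another name, is outside this rule.

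Odorant-binding proteins are small secreted proteins with a hydrophobic pocket that carry lipid-like molecules through extracellular fluid. Many are made by support cells of antennal and taste hairs, where they bring odorants or tastants to receptors, and some are made in other tissues such as fat body, glia and the reproductive tract. Obp44a is known as an abundant lipid carrier of fly glia, Obp83a and Obp83b are antennal proteins, and Obp83cd and Obp83ef belong to a group with a doubled binding domain.

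The brain and ovary libraries came from mutant 1, a frame-shift strain with 1 bp deleted in exon 1 of CG11247, from mutant 2, which lacks 2 bp in exon 2, and from the wild-type parent, all in an isogenised white background. The labels list the mutant stocks over a TM3 balancer and do not state whether the dissected females were homozygous. Females were 3 to 4 days old and had mated for 2 days, and each library pooled 40 brains or 5 pairs of ovaries, with 2 brain and 3 ovary libraries per genotype. The S2 libraries came from 1 clone (9C) that carries the OsTir1 ligase and a homozygous FLAG-AID tag on Saft, so that auxin triggers degradation of the protein. These cells had 0 h of auxin (solvent only), 24 h or 48 h at 500 µM, with 2 libraries each, so the untreated cells carry the tag and the ligase too. Nothing in the labels says whether replicates were separate dissections or cultures, and the p-values therefore reflect only how these libraries vary.

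Total gene counts were 39.0 to 45.6 M in brain libraries, 14.1 to 21.5 M in ovary libraries and 6.4 to 9.1 M in S2 libraries. CG11247 RNA averaged 65.9 CPM (counts scaled to 1 M per library) in mutant 1 brains and 107 in mutant 2 brains, against 87.8 in wild-type brains, and 30.1, 72.6 and 62.8 CPM in ovaries of mutant 1, mutant 2 and wild type. It fell in mutant 1 (log2 -0.41 in brain, adjusted p = 0.00394, and -1.06 in ovary, adjusted p = 1.3e-07) and rose in mutant 2 (0.28, adjusted p = 0.0301, and 0.21, adjusted p = 0.0349). No protein was measured in these data. In S2 cells it averaged 19.8 CPM untreated, 25.5 after 24 h and 26.8 after 48 h of auxin, with no call (adjusted p = 1.00 at both times). On the second principal component of the ovary libraries (11.9% of variance), mutant 1 replicate 1, mutant 2 replicate 3 and wild-type replicate 2 stood apart from the other 6. The defining markers of each tissue were present: the 6 neuronal markers summed to 9029.9 to 10159 CPM over the brain libraries, and the 6 germline markers to 3355 to 3608 CPM over the ovary libraries.

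Most members were below 1 CPM in every group. A member was called detected with at least 3 counts summed over a group and expressed at a mean of at least 1 CPM. In brain, 25 members were detected in mutant 1, 26 in mutant 2 and 28 in wild type, and 9, 8 and 11 of them were expressed. In ovary, 10, 11 and 12 were detected in mutant 1, mutant 2 and wild type, with 4 expressed in each. Of the 19 listed in S2 cells, 7 were detected and 5 expressed in untreated cells. Read depth was lower in ovary than in brain groups and lowest in S2 groups, so 3 counts stand for a higher CPM there. Numbers of detected members are therefore not comparable between brain, ovary and S2 cells. Over all groups 30 of 51 members were detected and 13 were expressed. The other 21 never reached 3 counts in any group. A group total of 0 counts allows up to 0.0356 CPM in brain and 0.0645 CPM in ovary, by counting error alone. Of these 21 members, 8 had 0 counts in every brain and ovary library and were not listed in S2 cells (Obp47b, Obp50b, Obp50d, Obp56b, Obp56f, Obp57d, Obp58c and Obp93a).

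The clusters, taken as members with the same number in their symbol, differed in which members were on. All 5 genes of the Obp50 cluster (5.055 kb on 2R) and all 3 of the Obp58 cluster (3.069 kb on 2R) were under 3 counts in both wild-type tissues. In the wider Obp56 cluster (170.992 kb on 2R), 6 of 9 genes were detected in wild-type brain, and Obp56d alone was expressed. In the Obp83 cluster (140.148 kb on 3R) all 5 were detected in wild-type brain, and Obp83cd and Obp83ef were expressed. In the Obp99 cluster (45.24 kb on 3R), Obp99a, Obp99b and Obp99c were expressed in both wild-type tissues while Obp99d was at 0 counts in both. Obp50b and Obp50c share 1 annotated span, so the split of reads between them is uncertain. The absence of counts for Obp50b is therefore uncertain too, as is that of Obp57d, which lies within Cpr57A on the same strand. Obp47b and Obp93a, also without counts, overlap other genes on the opposite strand by 741 and 652 bp, so their values are less certain.

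**Figure D1:**
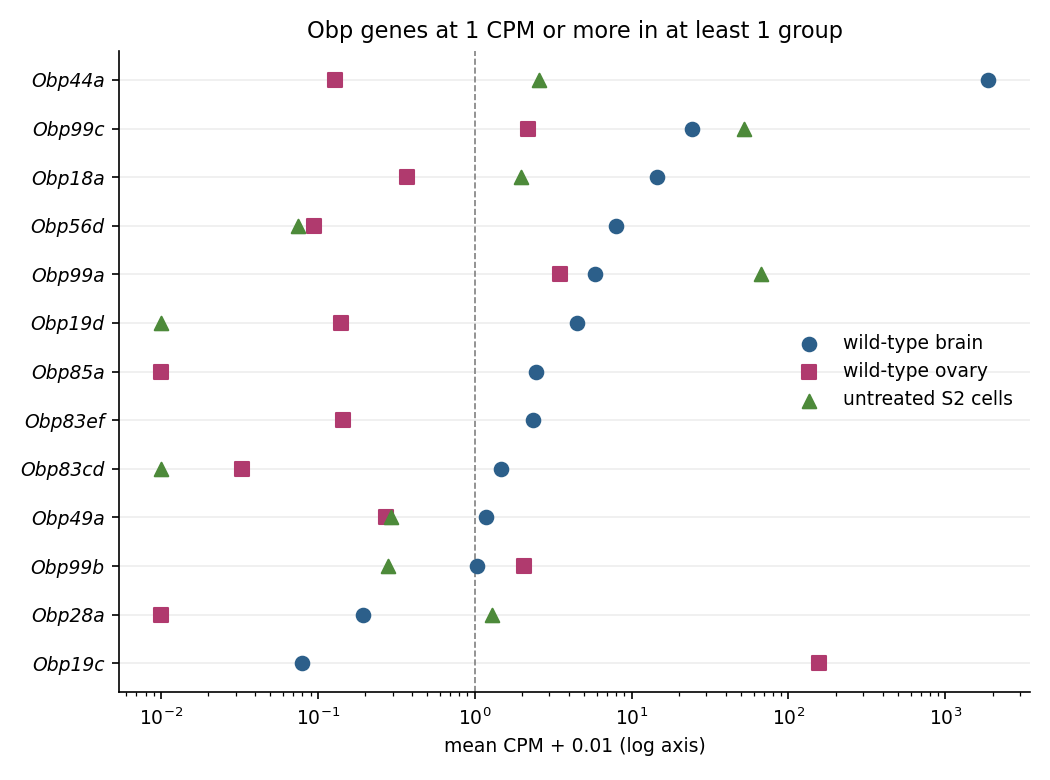
Mean CPM plus 0.01 on a log axis (x) of the 13 Obp genes expressed in at least 1 group (y, ordered by wild-type brain), in wild-type brain (n = 2), wild-type ovary (n = 3) and untreated S2 cells (n = 2). The dashed line marks 1 CPM, a gene not listed in S2 cells has no triangle there, and a point at the left edge has 0 counts. Obp44a lies far right in brain, Obp19c in ovary, and Obp99a and Obp99c in S2 cells.

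Obp44a and Obp19c, the highest members of the 2 tissues, lay at opposite ends. Levels between genes are compared per kilobase of the longest annotated transcript. In wild-type brain Obp44a stood at 1746 CPM per kilobase, rank 7 of 13661 genes, followed among members by Obp99c at 41.6, Obp18a at 19.9, Obp99a at 9.55 and Obp56d at 8.65 CPM per kilobase. In wild-type ovary Obp19c stood at 161 CPM per kilobase, rank 400 of 13661, followed by Obp99a at 5.74, Obp99c at 3.74 and Obp99b at 3.51 CPM per kilobase. These 3 ovarian neighbours differed by less than their spread over libraries.

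Between brain and ovary most genes differed, and the Obp genes tested were mostly higher in brain. Of 16 members tested between wild-type brain and wild-type ovary, 14 were higher and 1 was lower in brain at an adjusted p under 0.05, where 46.8% of all genes were called higher, 42.8% lower and 89.5% in either direction. A gene can pass the low-count filter of this fit through 1 tissue alone. Members nearly absent from ovary were therefore tested only because of their brain level, which set their direction. The count of 14 is thus not separate evidence about the family. Obp44a averaged 1879 ± 169 CPM in brain (SD, n = 2) and 0.118 ± 0.106 CPM in ovary (SD, n = 3), a log2 difference of 14.66 ± 0.23 (SE) with an adjusted p of 3.1e-17. The ratio of pooled counts was 17480.2 (95% exact interval 7490.3 to 53836). This interval covers counting error only, and it is wide because the ovary held 5 counts. CPM, pooled ratios and their bounds scale each tissue on its own, while the log2 differences come from a joint fit of both tissues. Their sizes therefore differ, and the fitted difference for Obp44a amounts to 25800-fold. Obp19c ran the other way, at 0.0691 ± 0.0334 CPM in brain and 157 ± 6.71 CPM in ovary, a log2 difference of -10.44 ± 0.57 (adjusted p = 7.4e-09). Its neighbour Obp19d, which shares the same cluster of 5.236 kb on X, was higher in brain, at 4.46 ± 2.32 against 0.131 ± 0.172 CPM (log2 5.49 ± 0.56, adjusted p = 1.9e-07). The other genes of that cluster, Obp19a and Obp19b, had 7 and 0 counts in wild-type brain and 2 and 4 in wild-type ovary.

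Among the remaining brain-high members, Obp18a differed by 6.01 ± 0.36 and Obp99c by 4.18 ± 0.45 on the log2 scale. For Obp56d, with 4 counts in wild-type ovary, the ratio of pooled counts was 92.3 (95% exact interval 35.9 to 340, counting error only), and the fitted log2 difference was 7.08 ± 0.61. For 4 called members with 0 ovary counts the ratio is a lower bound, taken against 3 counts over the ovary group. Obp85a was at least 37.9-fold higher in brain, Obp57c at least 9.96-fold, Obp8a at least 7.47-fold and Obp56h at least 6.40-fold. Obp85a lies within CG45263 on the same strand, a gene at 602 CPM in wild-type brain against 8.44 CPM in ovary, so its value is uncertain. Obp99a was called higher in brain (log2 1.40 ± 0.57, adjusted p = 0.0367). That call was lost without wild-type brain replicate 1 (0.85, adjusted p = 0.261), without wild-type ovary replicate 1 (1.38, adjusted p = 0.0818) or replicate 3 (1.05, adjusted p = 0.119), and with no low-count filter (1.43, adjusted p = 0.0513). Obp99b did not pass the test, at 1.02 ± 0.133 CPM in brain and 2.06 ± 0.606 CPM in ovary (log2 -0.37 ± 0.42, adjusted p = 0.412). With each tissue scaled on its own, its pooled ratio of brain over ovary was 0.500 (95% exact interval 0.370 to 0.675, counting error only). The size of its difference thus depends on the scaling.

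In mutant 1 brains Obp44a, the family's top gene, fell. Its level was 1005 and 1122 CPM in mutant 1 brains and 1144 and 1419.8 CPM in mutant 2 brains, against 1759.9 and 1999 CPM in wild-type brains. All 4 mutant libraries lay below both wild-type libraries, and mutant 1 lay below mutant 2. In mutant 1 the log2 fold change was -0.82 ± 0.12 (SE, adjusted p = 0.0142). In mutant 2 it was -0.55 ± 0.12 and did not pass (adjusted p = 0.0748), although DESeq2 called it (-0.55, adjusted p = 3.3e-05). The direct test between the mutants did not pass (mutant 2 minus mutant 1 0.27 ± 0.12, adjusted p = 1.00). The mean of both mutants against wild type was -0.69 ± 0.10 (adjusted p = 0.0128, where 3.29% of all genes were called), a comparison added after seeing the data. Without mutant 1 replicate 1 the mutant 1 change was -0.74 (adjusted p = 0.0828), and without wild-type replicate 2 it was -0.73 (adjusted p = 0.0532).

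Obp44a lies on 2R from 8134170 to 8135315 (BDGP6, minus strand) and overlaps Pabp2 on the opposite strand by 205 bp. Pabp2, a nuclear poly(A)-binding protein gene, averaged 24.2 CPM in mutant 1, 25.5 in mutant 2 and 24.3 in wild-type brains. Obp44a supplied 94.5% to 97.4% of all reads assigned to Obp genes in a brain library. The other 50 members together summed to 58.3 and 48.7 CPM in mutant 1 brains and 64.1 and 57.6 CPM in mutant 2 brains, against 84.1 and 54.1 CPM in wild-type brains, with overlap between the groups.

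Obp83ef was the other member called in mutant 1 brains. It stood at 1.16 and 1.14 CPM in mutant 1 and 1.83 and 1.30 CPM in mutant 2, against 2.43 and 2.25 CPM in wild type. The mutant 1 libraries held about the same level and lay below all others, and mutant 2 lay between mutant 1 and wild type. The log2 change was -1.03 ± 0.22 in mutant 1 (adjusted p = 0.0489) and -0.58 ± 0.21 in mutant 2 (adjusted p = 0.307). The call stood at the threshold: RLE size factors gave an adjusted p of 0.05002 and DESeq2 gave 0.0960. Leaving out any 1 of the 4 libraries compared gave adjusted p-values of 0.180 to 0.272, with changes of -1.08 to -0.97.

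The other members of the Obp83 cluster, which spans 140.148 kb on 3R, had negative changes in both mutants where tested, none of which passed. Obp83cd, which overlaps Obp83ef by 92 bp on the opposite strand, had 0.767 and 0.869 CPM in mutant 1 and 0.803 and 0.914 CPM in mutant 2, against 1.60 and 1.34 CPM in wild type. No mutant library reached the wild-type range, and the changes were -0.84 ± 0.24 (adjusted p = 0.166) and -0.78 ± 0.24 (adjusted p = 0.186). Obp83g, next to Obp83ef, had 0.0697 and 0.0483 CPM in mutant 1 and 0.178 and 0.152 CPM in mutant 2, against 0.255 and 0.341 CPM in wild type. These are low levels, from 5, 14 and 26 counts summed over mutant 1, mutant 2 and wild type, and the changes were -2.28 ± 0.57 (adjusted p = 0.107) and -0.83 ± 0.48 (adjusted p = 0.606). Obp83a, an antennal gene at the far end of the cluster, had 0.441 and 0.459 CPM in mutant 1 and 0.446 and 0.559 CPM in mutant 2, against 0.626 and 0.501 CPM in wild type (-0.32 ± 0.32 and -0.17 ± 0.32). Obp83b had 0.0232 and 0 CPM in mutant 1 and 0.0223 and 0.0508 CPM in mutant 2, against 0.0695 and 0.114 CPM in wild type, and was under the low-count filter.

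**Figure D2:**
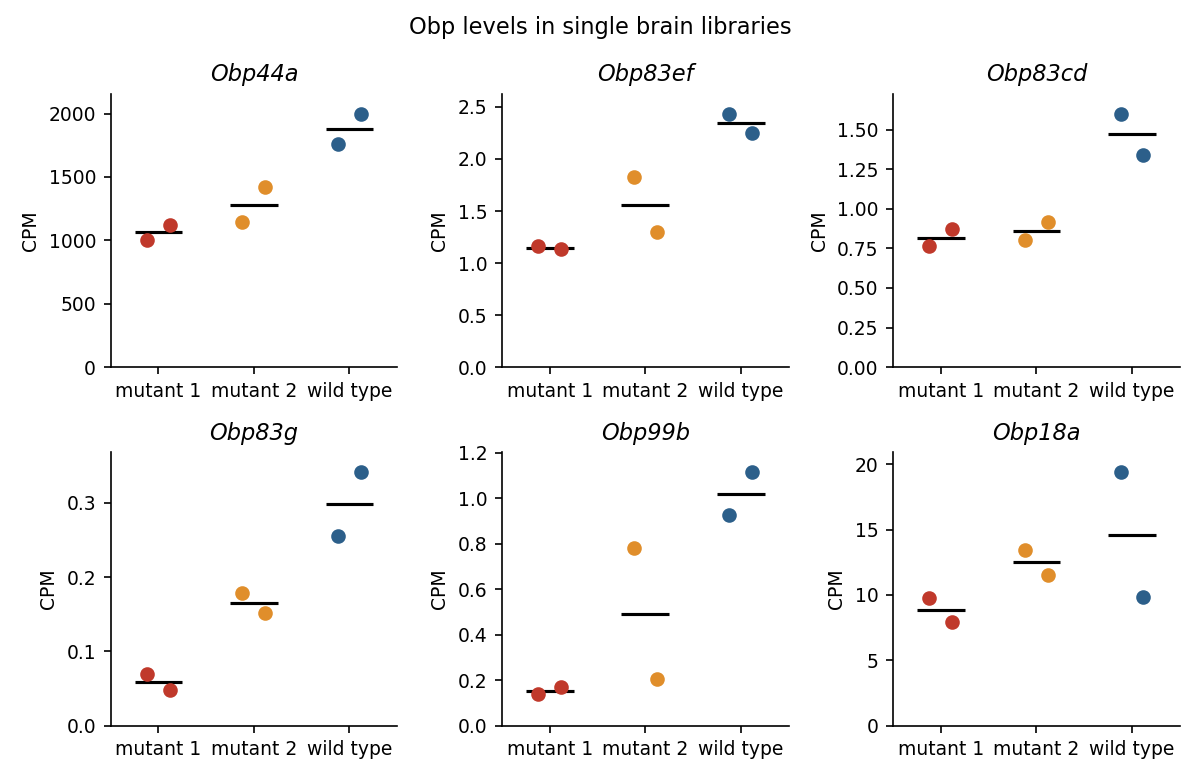
CPM (y, from 0) of 6 Obp genes in each brain library of mutant 1, mutant 2 and wild type (x, n = 2 each); points are libraries and bars are means. For Obp44a, Obp83ef, Obp83cd, Obp83g and Obp99b every mutant point lies below both wild-type points, and for Obp18a the wild-type libraries are far apart.

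Obp99b had the largest fitted change of the members tested in mutant 1 brains. It had 0.139 and 0.169 CPM in mutant 1 and 0.781 and 0.203 CPM in mutant 2, against 0.927 and 1.11 CPM in wild type. Mutant 2 replicate 1 stood near wild type while mutant 2 replicate 2 stood near mutant 1. The change was -2.71 ± 0.59 in mutant 1 (adjusted p = 0.0636) and -1.03 ± 0.50 in mutant 2 (adjusted p = 0.516), neither of which passed. DESeq2 (adjusted p = 0.0231), the fit without a low-count filter (0.0404) and the fit of only the 2 groups (0.00243) called it in mutant 1. In mutant 2 it was called without replicate 1 of that group (-2.32, adjusted p = 0.0296). Its cluster neighbours Obp99a and Obp99c did not pass either. Obp99a had 10.2 and 5.34 CPM in mutant 1 and 10.5 and 7.14 CPM in mutant 2, against 7.72 and 3.94 CPM in wild type (0.42 ± 0.54 and 0.60 ± 0.54, adjusted p = 0.963 and 0.802). Obp99c had 21.8 and 17.6 CPM in mutant 1 and 22.6 and 22.7 CPM in mutant 2, against 27.3 and 20.9 CPM in wild type (-0.29 ± 0.15 and -0.09 ± 0.15, adjusted p = 0.694 and 0.906).

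The other members expressed in wild-type brain did not pass. Obp18a had 9.76 and 7.95 CPM in mutant 1 and 13.4 and 11.5 CPM in mutant 2, against 19.4 and 9.83 CPM in wild type. The wild-type libraries were the furthest apart, and the changes were -0.72 ± 0.38 (adjusted p = 0.757) and -0.22 ± 0.37 (adjusted p = 0.910). Without wild-type replicate 2, the lower one, Obp18a was called in mutant 1 (-1.13, adjusted p = 0.00745). Obp56d had 3.07 and 5.02 CPM in mutant 1 and 4.30 and 4.09 CPM in mutant 2, against 11.0 and 4.98 CPM in wild type, where 1 wild-type library stood far above the rest (-0.98 ± 0.48 and -0.92 ± 0.48, adjusted p = 0.713 and 0.616). Obp19d had 4.04 and 3.45 CPM in mutant 1 and 2.63 and 3.61 CPM in mutant 2, against 6.10 and 2.82 CPM in wild type. Its groups overlapped (-0.25 ± 0.38 and -0.52 ± 0.39, adjusted p = 0.977 and 0.739). Obp49a changed by -0.17 ± 0.41 and -0.44 ± 0.42 (adjusted p = 0.986 and 0.800), and Obp85a by 0.03 ± 0.20 and -0.01 ± 0.20 (adjusted p = 0.994 and 0.989). Other members under 1 CPM had large fitted changes that did not pass. Obp57c had 0.534 and 0.411 CPM in mutant 1 and 0.335 and 0.152 CPM in mutant 2, against 0.649 and 0.637 CPM in wild type (-0.44 ± 0.38 and -1.37 ± 0.41, adjusted p = 0.883 and 0.180). Obp69a had 16, 18 and 8 counts over mutant 1, mutant 2 and wild type (1.01 ± 0.76 and 1.19 ± 0.75, adjusted p = 0.841 and 0.649). Obp69a lies within CG32104 on the opposite strand and Obp99c overlaps Gycalpha99B by 23 bp, also on the opposite strand, so their values are less certain.

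Over the 18 members tested in brain, 0 were called higher and 2 lower in mutant 1, where 1.9% of all genes were called higher and 0.759% lower. In mutant 2, 0 members were called in either direction by edgeR, where 2.96% of all genes were called. At an unadjusted p under 0.05 there were 5 members in mutant 1, where 9.33% of all genes were, and 4 in mutant 2, where 11.4% were. DESeq2 called 2 of 24 members it tested in mutant 1 (Obp44a and Obp99b, with 2.98% of all genes called) and 1 of 21 in mutant 2 (Obp44a, with 3.89%), all lower. In each mutant 13 of 18 members had a negative change, with medians of -0.30 in mutant 1 and -0.33 in mutant 2, against medians over all genes of -0.00017 and -0.00080. In mutant 1, 2 members were higher and 8 lower without overlap of the libraries, where 22.3% and 21.2% of all genes were. In mutant 2 these were 2 and 7, against 20.5% and 19.1% of all genes. Both comparisons share the wild-type libraries, so the signs in the 2 mutants are not separate evidence. Between mutant 2 and mutant 1, 0 members were called by edgeR or DESeq2 (0.0405% of all genes by edgeR), with 2 at an unadjusted p under 0.05, where 2.44% of all genes were.

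**Figure D3:**
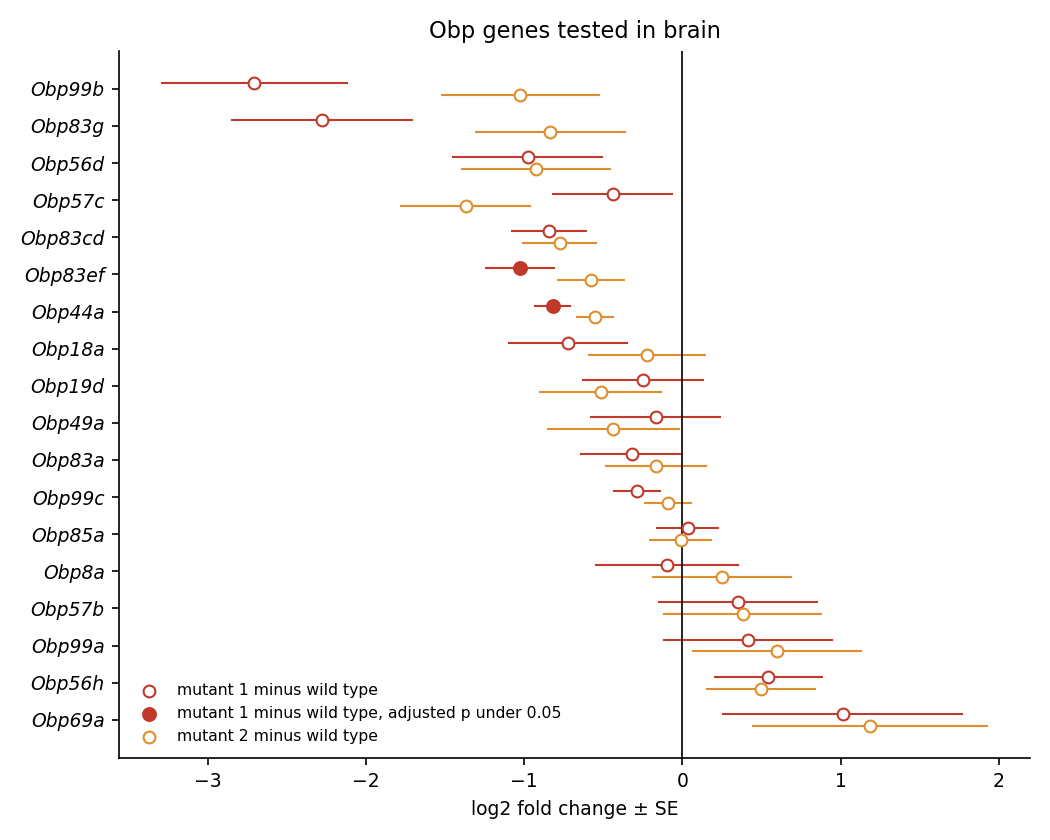
Log2 fold change with its SE (x) of the 18 Obp genes tested in brain (y), for mutant 1 minus wild type and mutant 2 minus wild type; filled points have an adjusted p under 0.05. Obp44a and Obp83ef in mutant 1 are the filled points, and 13 of the 18 members lie left of 0 in each mutant.

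Markers of other cells moved in the same brain libraries. Fewer cells of a type and less RNA per cell cannot be told apart in such bulk samples. Of 9 hemocyte markers tested, 7 fell in each mutant, among them NimC2 by 1.11 and 1.10 and eater by 0.83 and 1.13 on the log2 scale in mutants 1 and 2. The hemocyte list summed to 2653 to 2778 CPM in mutant 1 and 2541 to 2668 CPM in mutant 2, against 3387 to 3738 CPM in wild type, with none of its 10 genes at 0. Of 9 fat body markers, Fbp1 fell by 2.43 and 2.02 and Lsp1gamma by 2.70 and 2.07 in mutants 1 and 2, and Desat1 rose by 0.40 in mutant 2. Their sums overlapped, at 2812 to 3369 CPM in mutant 1, 2641 to 3512 CPM in mutant 2 and 3077 to 3837 CPM in wild type. The yolk protein genes, which fat body also expresses, made up nearly all of the follicle cell list in brain, which summed to 10606 to 13085 CPM in mutant 1, 11372 to 12209.7 CPM in mutant 2 and 14079.6 to 18792 CPM in wild type. Its vitelline membrane and chorion genes Vm26Aa, Vm26Ab and Cp36 were under 1 CPM, and the 3 yolk protein genes did not pass by edgeR, with median changes of -0.45 and -0.49 in mutants 1 and 2 (3 and 2 of them at an unadjusted p under 0.05).

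Of 12 glial markers, nrv2 alone fell, by 0.31 in mutant 1 (adjusted p = 0.0374), and the glial sum was 5848 to 5969 CPM in mutant 1 and 5969.5 to 6339.9 CPM in mutant 2, against 6412 to 6572 CPM in wild type. The median change of the glial list was 0.0029 in mutant 1 and -0.01 in mutant 2. Neuronal sums overlapped, at 9345 to 9786 CPM in mutant 1, 9029.9 to 10159 CPM in mutant 2 and 9281 to 9550 CPM in wild type. The part of these cells in the Obp values was not tested.

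Chemosensory tissue left little trace in the brain libraries. Of 12 markers of antenna and other chemosensory organs, 10 were under 1 CPM in each genotype, and Or47b was at 0 in all 3. They summed to 6.26 to 6.44 CPM in mutant 1 and 6.27 to 6.93 CPM in mutant 2, against 3.87 to 4.80 CPM in wild type, without overlap. The part of such tissue in the Obp values was not tested. The marker called in this list was Orco, the shared co-receptor of odorant receptors, which rose to 2.80 ± 0.443 CPM in mutant 1 and 2.58 ± 0.0181 CPM in mutant 2, against 1.205 ± 0.130 CPM in wild type (SD, n = 2 each). Its changes were 1.22 ± 0.19 (adjusted p = 0.00952) and 1.09 ± 0.19 (adjusted p = 0.0170). The carrier gene lush averaged 0.0599 CPM in mutant 1, 0.0588 in mutant 2 and 0.103 in wild-type brains, and 0 counts were found in any ovary library. Among 32 other carrier and receptor genes of chemosensation, 21 were tested in brain. In mutant 1 Orco rose, and the cytochrome P450 gene Cyp6w1 (-0.38 ± 0.08, adjusted p = 0.0478) and the glycosyltransferase gene Ugt35b (-0.41 ± 0.08, adjusted p = 0.0473) fell, with a list median of -0.03. In mutant 2 Orco rose and PebIII, a small carrier-like secreted protein of the OS-D type, fell (-0.34 ± 0.07, adjusted p = 0.0328), with a list median of 0.0010. The odorant receptor, ionotropic receptor, gustatory receptor and CheA/CheB lists had 14, 11, 10 and 3 members tested in brain and 0 called by edgeR in either mutant. At an unadjusted p under 0.05 there were 1, 3, 0 and 0 in mutant 1 and 0, 2, 0 and 0 in mutant 2.

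In ovary 4 members were abundant enough to test by edgeR, and 0 were called in either mutant, where 23.5% of all genes in mutant 1 and 16.1% in mutant 2 were. DESeq2 tested 6 members in mutant 1 and 9 in mutant 2 and called 0. No member had an unadjusted p under 0.05 by edgeR, where 38.4% of all genes in mutant 1 and 33.7% in mutant 2 did. All 4 had negative changes in both mutants, with medians of -0.68 and -0.47, against 0.0082 and 0.0035 over all genes. Between mutant 2 and mutant 1, 0 were called by either tool, where edgeR called 0.012% of all genes, and 0 had an unadjusted p under 0.05.

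Obp19c had 143, 116 and 76.0 CPM in mutant 1 and 95.9, 85.6 and 145 CPM in mutant 2, against 165, 155 and 153 CPM in wild type. All 6 mutant libraries lay below the 3 wild-type libraries, in which the level was tight, while the mutant libraries spread over a wider range than the difference in means. It averaged 112 ± 33.5 CPM in mutant 1, 109 ± 31.5 CPM in mutant 2 and 157 ± 6.71 CPM in wild type (SD, n = 3 each). Among all genes tested, 20.1% were lower without overlap in each mutant. The changes were -0.50 ± 0.27 (adjusted p = 0.225) and -0.54 ± 0.27 (adjusted p = 0.217). The 2 highest mutant libraries, mutant 1 replicate 1 and mutant 2 replicate 3, are among the 3 that stood apart on the second component. Without these 3 libraries the changes were -0.73 (adjusted p = 0.110) and -0.81 (adjusted p = 0.141), and their part in the spread was not tested.

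The Obp99 genes were low and variable in ovary. Obp99a had 1.95, 1.37 and 1.93 CPM in mutant 1 and 5.24, 2.47 and 1.12 CPM in mutant 2, against 3.31, 5.46 and 1.74 CPM in wild type (-0.99 ± 0.55 and -0.23 ± 0.53, adjusted p = 0.212 and 0.788). Obp99c had 1.22, 0.711 and 1.56 CPM in mutant 1 and 2.12, 1.48 and 0.237 CPM in mutant 2, against 2.55, 3.25 and 0.705 CPM in wild type (-0.87 ± 0.70 and -0.72 ± 0.70, adjusted p = 0.395 and 0.497). Obp99b had 1.40, 1.80 and 1.19 CPM in mutant 1 and 1.51, 1.24 and 1.95 CPM in mutant 2, against 1.45, 2.66 and 2.06 CPM in wild type (-0.49 ± 0.30 and -0.39 ± 0.30, adjusted p = 0.257 and 0.378). Groups overlapped for all 3 genes. Without the 3 libraries that stood apart, the mutant 2 change turned positive for Obp99a (0.63, adjusted p = 0.391) and Obp99c (0.19, adjusted p = 0.876). Obp18a, the next member by ovary level, was too low to test, at 0.122, 0.273 and 0.321 CPM in mutant 1 and 0.252, 0.0988 and 0.237 CPM in mutant 2, against 0.345, 0.517 and 0.217 CPM in wild type.

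**Figure D4:**
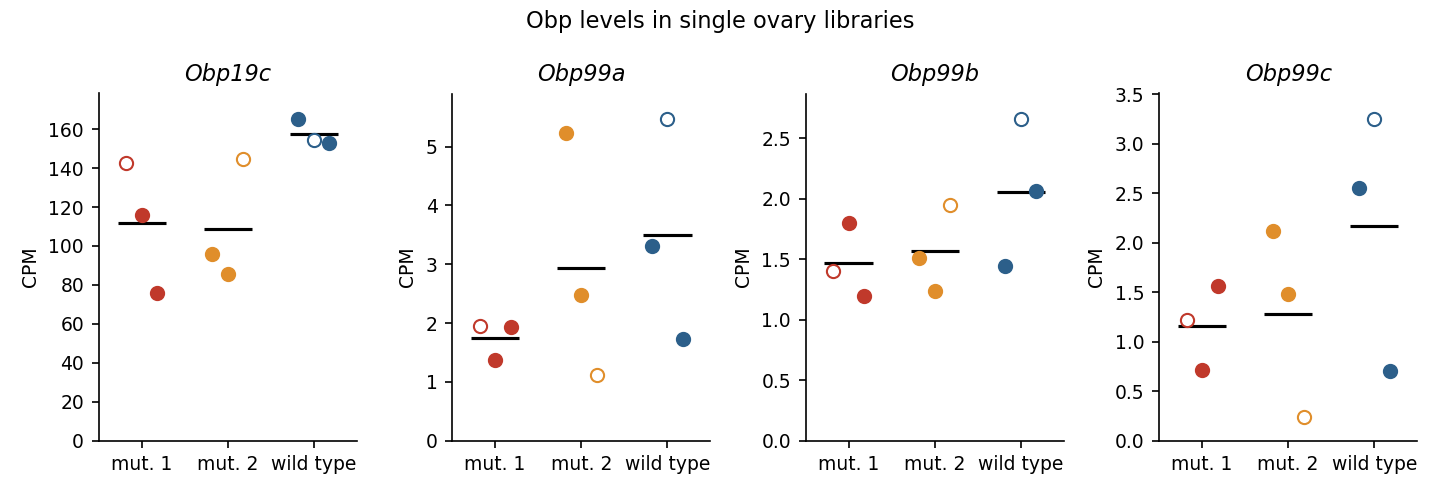
CPM (y, from 0) of the 4 Obp genes tested in ovary, in each library of mutant 1, mutant 2 and wild type (x, n = 3 each); bars are means and open points are the 3 libraries that stood apart on the second principal component. For Obp19c the highest mutant library is at 145 CPM and the lowest wild-type library at 153 CPM, and the groups of the other 3 genes overlap.

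Markers of other cells also moved in the ovary libraries, where edgeR called 23.5% of all genes in mutant 1 and 16.1% in mutant 2. Of 6 follicle cell markers tested, 3 were called lower in mutant 1 and 2 in mutant 2. In each mutant 2 of 6 germline markers and 2 of 8 glial markers tested were called lower. The follicle cell list summed to 11688 to 13723 CPM in mutant 1 and 11715 to 13974 CPM in mutant 2, against 16389 to 20984 CPM in wild type, and Yp1 fell by 0.69 and 0.66 in mutants 1 and 2. The hemocyte list summed to 555 to 623 CPM in mutant 1 and 496 to 804 CPM in mutant 2, against 853 to 879 CPM in wild type, with He at 0 in every group. In each group 5 of its 10 genes were under 1 CPM. The median change of the hemocyte markers tested was 0.055 in mutant 1 and 0.043 in mutant 2, so the sums rest on a few abundant genes. Of 7 hemocyte markers tested in ovary, vkg fell by 0.94 in mutant 1, and Hml rose by 1.41 in mutant 2. The fat body list summed to 453 to 533 CPM in mutant 1 and 462 to 597 CPM in mutant 2, against 454 to 627 CPM in wild type, while its members bmm and Lsp1gamma rose by 0.22 and 1.00 in mutant 1. The muscle list summed to 368 to 376 CPM in mutant 1 and 324 to 581 CPM in mutant 2, against 311 to 353 CPM in wild type, and its members up and Mf rose by 0.82 and 0.47 in mutant 2. The part of these cells in the Obp values of ovary was not tested. PebIII rose in both mutant ovaries (0.95 ± 0.30, adjusted p = 0.0441, and 1.30 ± 0.30, adjusted p = 0.0183), and Phk-3, another small secreted carrier-like protein of the OS-D type, rose in mutant 2 (2.03 ± 0.37, adjusted p = 0.00363), out of 5 other carrier and receptor genes tested.

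The mutant effect was also compared between tissues, as the mean change of both mutants in brain minus that in ovary. Of 16 members tested, 0 were called by edgeR or DESeq2, where edgeR called 6.29% of all genes, and 1 (Obp99b) had an unadjusted p under 0.05, where 22.9% of all genes did. For Obp99b the difference was -1.44 ± 0.54 (adjusted p = 0.122), and without mutant 2 brain replicate 1 it was -2.10 (adjusted p = 0.0156). For Obp44a the difference was -1.22 ± 0.80 (adjusted p = 0.376), a wide interval because its ovary level was near 0.

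In S2 cells Obp99a and Obp99c were the leading members. Counts of these 3′ end libraries do not scale with transcript length. Obp99c had 61.9 and 41.8 CPM in untreated cells, 50.8 and 53.3 CPM after 24 h of auxin and 73.6 and 41.5 CPM after 48 h. Obp99a had 112 and 22.1 CPM in untreated cells, 79.8 and 14.3 CPM after 24 h and 97.7 and 20.1 CPM after 48 h. Replicate 1 exceeded replicate 2 of Obp99a at every time, by 5.13-fold on average, while for Obp99c the ratio was 1.36.

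The other S2 members stood at low levels at every time. Obp44a had 2.97 and 2.13 CPM in untreated cells, 1.81 and 2.09 CPM after 24 h and 2.88 and 2.77 CPM after 48 h. Obp18a had 1.03 and 2.89 CPM in untreated cells, 1.81 and 3.43 CPM after 24 h and 3.55 and 2.63 CPM after 48 h. Obp28a, an abundant antennal gene in the fly, had 1.03 and 1.52 CPM in untreated cells, 1.02 and 1.64 CPM after 24 h and 0.332 and 1.25 CPM after 48 h. These values rest on 12 to 51 counts per group. Obp19c, the ovary member, was not listed in S2 cells, while Obp99b had 4 counts untreated, 0 after 24 h and 1 after 48 h.

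Of the 5 members tested by edgeR in S2 cells, 0 were called after 24 h or 48 h, where 0.0979% and 0.112% of all genes were, and 0 had an unadjusted p under 0.05. DESeq2 tested 19 members after 24 h and 9 after 48 h and called 0. Changes for Obp99a were -0.51 ± 1.18 after 24 h and -0.19 ± 1.18 after 48 h, and for Obp99c 0.0038 ± 0.31 and 0.15 ± 0.31 (adjusted p = 1.00 for each). Same-numbered S2 libraries deviated together. With the replicate number as a block, Obp99a was called lower after 24 h (-0.54 ± 0.15, adjusted p = 0.0206, in a fit that called 1.93% of all genes), lower in both pairs, by 0.49 and 0.62 on the log2 scale of CPM. After 48 h the blocked change was -0.18 (adjusted p = 0.744).

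**Figure D5:**
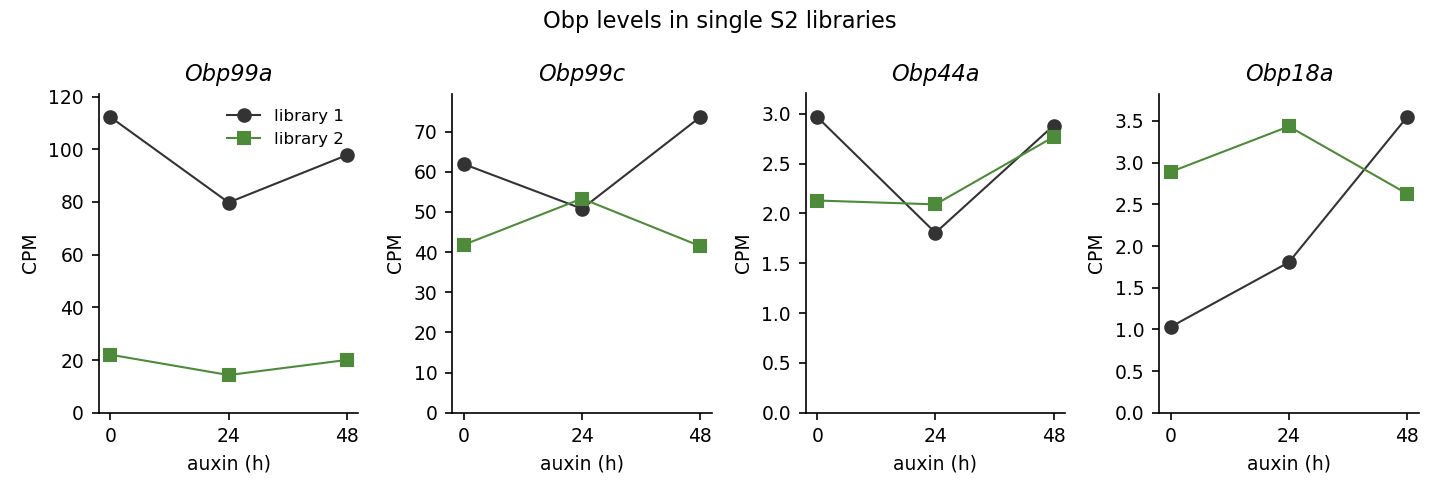
CPM (y, from 0) of 4 Obp genes in S2 libraries after 0, 24 and 48 h of auxin (x); lines join libraries with the same replicate number. Obp99a libraries separate by replicate number at every time, and the lines of the other 3 genes cross or meet.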

How the data were processed

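The authors deposited raw counts per transcript for S2 cells (3′ end libraries) and estimated counts per gene for brain and ovary (directional libraries from RNA depleted of rRNA), 1 column per library and unnormalised. Per the submitters' processing notes, build dm3 was used, with Trim Galore 0.6.2 and Salmon 1.2.1 for tissues. The sources used here name neither the S2 aligner nor the strand setting of the counting, so overlapping genes are uncertain. Each S2 gene was taken as its isoform with the highest total, since isoforms repeat reads. Of 26009 S2 transcripts, 25653 matched a gene, and the rest held 0.361% to 0.418% of counts. Estimated counts were rounded. Names, arms, lengths and overlaps came from the BDGP6 annotation.

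Whole tables were fitted with edgeR 4.0.16 (R 4.3.3): TMM scaling, the edgeR low-count filter, robust quasi-likelihood F test, all groups of a system in 1 fit without a block, Benjamini-Hochberg adjustment over all genes, calls at 0.05. This left 7152 (S2), 9880 (brain), 8312 (ovary) and 10029 (both tissues) genes tested. CPM are TMM-scaled within S2 cells, brain or ovary on its own, and the SE is the change divided by the root of F. The procedure was tested on simulated data. Intervals, bounds and floors (3 counts) cover counting error only. Values are given for members called under a mutant or auxin, their cluster neighbours, the 5 highest in wild-type brain, in wild-type ovary and in untreated S2 cells. Of lists, up to 4 called genes were to be named. Others were named after their values were seen. Members and lists were chosen with earlier results of these data known. Deviations of same-numbered libraries correlated at 0.587 to 0.719 in S2 cells, in every pair, so the numbers were taken to pair those libraries. Alternatives were DESeq2 1.42.0, RLE factors, no filter, a replicate block, only the groups compared, summed isoforms, other expression thresholds and leaving out each library. The mean of both mutants and the fit without the 3 ovary libraries that stood apart were chosen after seeing the data.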

Additional observations from a re-analysis of the deposited data

How the results depend on the processing

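Depth and replicate number limit these results: with 2 brain libraries per genotype, the count of members called in brain moved with most choices. In mutant 1 brain it was 1 instead of 2 with RLE size factors and for the mean of both mutants, and 0 to 1 when any 1 library was left out. It was 3 with no low-count filter and with only the 2 groups compared, where Obp99b joined Obp44a and Obp83ef, and with DESeq2 the 2 called were Obp44a and Obp99b. In mutant 2 brain, where the count was 0, it was 1 with DESeq2, 2 with the replicate block (Obp44a, -0.56, adjusted p = 9.1e-04, and Obp99a, 0.64, adjusted p = 0.0382), 1 for the mean of both mutants and 0 to 1 when 1 library was left out. For the brain-minus-ovary mutant effect it was 0 to 1 with 1 library left out. In S2 cells after 24 h, 1 member was called with the replicate block. Same-numbered libraries correlated at 0.0454 to 0.192 in brain and -0.337 to 0.267 in ovary, so the numbers were not taken to pair those libraries. Between wild-type brain and ovary the block moved Obp56d to 10.93 and Obp83ef to 8.13 on the log2 scale, against 7.08 and 4.75 without it. The ovary counts of 0 held under every alternative run, and 14 to 17 members were called between wild-type brain and ovary with 1 library left out. At a threshold of 2 CPM, 3 members were expressed in S2 cells after 24 h and in untreated cells, 1 in mutant 1 ovary and 2 in mutant 2 ovary. At 0.5 CPM, 13 were expressed in mutant 2 brain. No result changed its direction past the test's threshold. The share of all genes called is given above for DESeq2 in brain, the mean of both mutants and the S2 block. For the other alternative fits it is not given, so their counts cannot be read as a result about the members.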

Other observations

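Obp57a, a member of the Obp57 cluster on 2R, was under the low-count filter and therefore not tested within brain or ovary in the main fits. It is named here after its values were seen. The brain fit without that filter, which tested 40 members, did not call Obp57a in mutant 1. Its counts summed to 17 in mutant 1 and 10 in mutant 2 brains, against 3 in wild-type brains, and to 14 in mutant 1 and 9 in mutant 2 ovaries, against 3 in wild-type ovaries. In brain it had 0.163 and 0.242 CPM in mutant 1 and 0.0892 and 0.152 CPM in mutant 2, against 0 and 0.0683 CPM in wild type. In ovary it had 0, 0.383 and 0.321 CPM in mutant 1 and 0.353, 0 and 0.118 CPM in mutant 2, against 0.0689, 0 and 0.109 CPM in wild type, with overlap between all groups. Brain groups did not overlap, at a level of few reads per library. Among all genes tested in brain, 22.3% in mutant 1 and 20.5% in mutant 2 were higher than wild type without overlap.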
